A study of Mus musculus with 11 samples.

Results

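CUT&Tag-BS libraries for H3K27me3 made from 100000 and from 250000 mouse E14 embryonic stem cells were compared CpG by CpG and peak by peak on chromosomes 1 to 19. They are 2 of the 11 samples of the series, 1 library per cell number, and were chosen as its nearest thing to a repeat. E14 is a line of 129/Ola background, grown here with fetal bovine serum and leukemia inhibitory factor, and both libraries used the same antibody against H3K27me3 (CST #9733S). In CUT&Tag-BS an antibody tethers a protein A-Tn5 transposase to chromatin that carries the mark, and the released fragments, bearing methylated adapters, are bisulfite converted and sequenced, so that each CpG on them is read as methylated or unmethylated. A library from 20000 cells and a 250000-cell control without bisulfite, both for the same mark, serve below as side references. Whether the libraries came from separate cultures is not stated, and with 1 library each every test below compares these libraries, not the cell numbers.

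H3K27me3 is laid down by Polycomb repressive complex 2, mostly over CpG-dense promoters of developmental regulators that are silent in embryonic stem cells. Dense CpG islands under the mark are usually free of DNA methylation, while the flanks of such domains and CpG-poorer regions can carry it in only some of the molecules. A CpG of intermediate level, here from 20 to 80% methylated, is the most demanding case for a repeat, since its level is set by a mixture of molecules.

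The promoter stretches below were taken from RefSeq (build GRCm38.p6) for 4 genes that represent the cases found, and show the gene's own strand from 250 bases before to 50 bases after its start. Neurog1, a proneural transcription factor (chr13:56252131-56252430, minus strand), and Hrh3, a histamine receptor (chr2:180104358-180104657, minus strand), were unmethylated in both libraries, and the capitals mark the CpGs with at least 10 calls in each library, all of which were under 20% in both. Hoxa7, a body-axis transcription factor (chr6:52218524-52218823, minus strand), and Sycp1, a protein of the meiotic synaptonemal complex (chr3:102936051-102936350, minus strand), were intermediate, and the capitals mark the CpGs from 20 to 80% in both libraries.
Neurog1: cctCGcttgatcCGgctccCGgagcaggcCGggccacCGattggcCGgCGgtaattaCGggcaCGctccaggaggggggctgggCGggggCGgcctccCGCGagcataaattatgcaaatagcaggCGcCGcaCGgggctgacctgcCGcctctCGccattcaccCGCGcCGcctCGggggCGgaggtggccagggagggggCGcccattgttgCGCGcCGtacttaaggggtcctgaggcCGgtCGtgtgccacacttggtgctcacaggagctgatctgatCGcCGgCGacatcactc
Hrh3: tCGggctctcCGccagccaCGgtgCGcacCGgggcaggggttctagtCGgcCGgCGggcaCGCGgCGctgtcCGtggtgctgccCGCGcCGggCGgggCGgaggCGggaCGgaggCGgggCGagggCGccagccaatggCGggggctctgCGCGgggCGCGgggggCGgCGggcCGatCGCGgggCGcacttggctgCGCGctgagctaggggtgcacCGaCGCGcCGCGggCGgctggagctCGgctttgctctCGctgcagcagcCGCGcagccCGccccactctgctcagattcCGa
Hoxa7: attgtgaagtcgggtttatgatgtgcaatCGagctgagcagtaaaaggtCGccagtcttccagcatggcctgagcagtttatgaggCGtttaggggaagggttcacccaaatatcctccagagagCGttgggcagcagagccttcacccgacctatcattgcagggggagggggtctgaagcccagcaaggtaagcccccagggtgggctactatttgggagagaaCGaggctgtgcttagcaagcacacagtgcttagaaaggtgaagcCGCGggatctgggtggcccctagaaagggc
Sycp1: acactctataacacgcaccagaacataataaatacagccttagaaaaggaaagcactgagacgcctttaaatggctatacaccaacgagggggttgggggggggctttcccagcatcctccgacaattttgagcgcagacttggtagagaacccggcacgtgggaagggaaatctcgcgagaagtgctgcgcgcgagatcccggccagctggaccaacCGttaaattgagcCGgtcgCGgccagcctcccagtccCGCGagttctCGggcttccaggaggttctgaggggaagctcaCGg

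Neurog1 had 32 such CpGs in its stretch, and none of them exceeded 1.47% in the 100000-cell library or 2.27% in the 250000-cell library. Summed over the stretch, 6 of 2267 calls (0.265%) and 16 of 3484 calls (0.459%) were methylated. At Hoxa7, 7 of 9 CpGs were intermediate in both libraries. Its 9 CpGs ran from 6.67 to 46.9% in the 100000-cell library and from 11.8 to 44.4% in the 250000-cell library, and no CpG differed by more than 6.97 percentage points. The CpG at position -102 bp from the Hoxa7 start was the lowest in both libraries, with 2 of 30 calls and 8 of 68 calls methylated, between neighbours at 46.9 and 29.3% in the 100000-cell library. Over the whole Hoxa7 stretch the levels were 31.3% (103 of 329 calls) and 31.6% (208 of 659 calls). Sycp1 also had 7 of 9 CpGs intermediate in both, but at only 10 to 23 calls per CpG. The Sycp1 CpG 7 bp after the start read 75.0% (9 of 12 calls) and 41.7% (5 of 12 calls), while the whole stretch read 62.4% (118 of 189) and 64.7% (152 of 235).

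**Figure D1:**
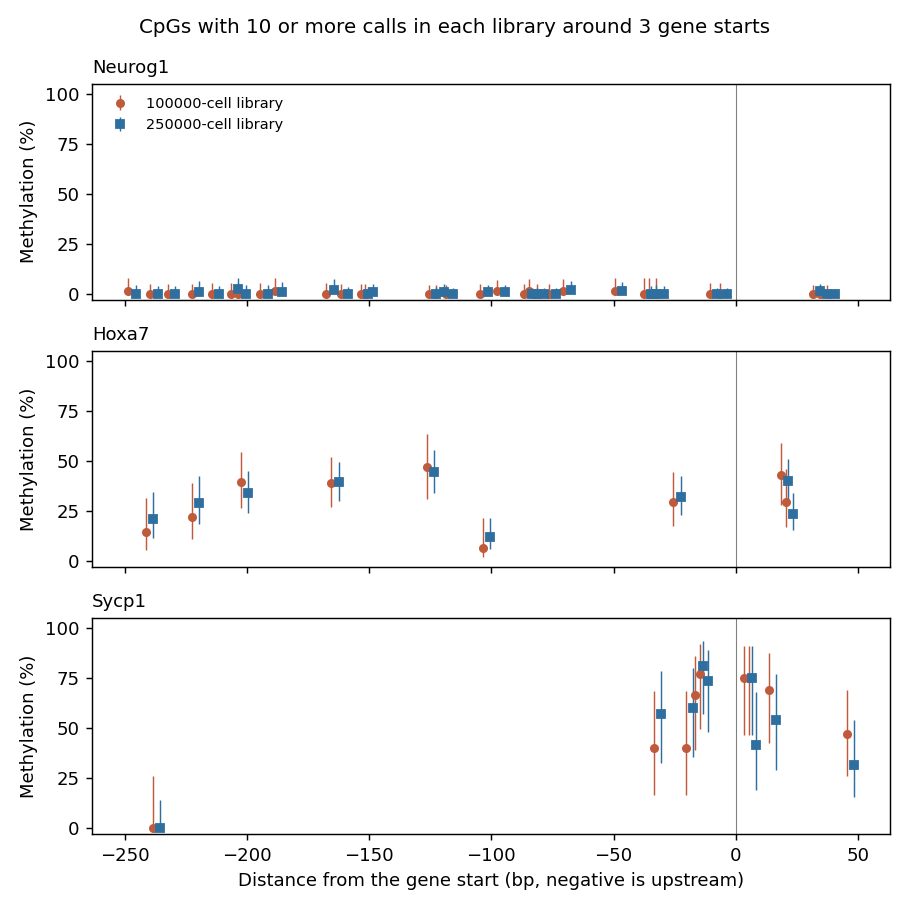
Methylation level (%, vertical axis) of each CpG with at least 10 calls in both libraries against its distance from the gene start (bp) at Neurog1, Hoxa7 and Sycp1. Circles are the 100000-cell and squares the 250000-cell library, shifted sideways a little in opposite directions, and bars are 95% Wilson intervals for counting error; Neurog1 lies at the floor, and the 9 Hoxa7 CpGs keep their up-and-down profile.

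The 100000-cell library held 24056602 CpG calls and the 250000-cell library 36558653. At least 1 call was present at 4753922 and 5798585 CpGs, and at least 10 calls at 621165 and 780096. Polycomb peaks took 81.5 and 82.9% of the calls. As a check of the cell type, the starts of 8 of 8 genes of differentiated lineages lay inside an H3K27me3 peak in each library, against 2 of 10 stem cell genes. The overall level was 33.3 and 32.4%. Neighbouring CpGs can be read from a single fragment, and PCR duplicates do not count separate molecules, so all intervals below cover counting error only and p-values over several CpGs of one region are too small.

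CpGs read in both libraries and CpGs read in only one were different populations. The 2940090 CpGs with a call in both libraries had levels of 28.9 and 27.4%. The 1813832 CpGs read only in the 100000-cell library were 75.2% methylated, and the 2858495 read only in the 250000-cell library 74.3%. Outside peaks the libraries held 0.00998 and 0.00923 calls per CpG per 1000000 calls. With at least 10 calls in each, 596341 CpGs could be compared, which is 96.0% of those at that depth in the 100000-cell library and 76.4% of those in the deeper one. Of these CpGs 98.7% lay in an H3K27me3 peak of the mark's unified list and 43.5% within 1000 bp of a gene start.

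At these 596341 CpGs, with a median of 22 and 33 calls, the mean level was 21.7% from 100000 cells and 21.8% from 250000 cells. The median absolute difference was 2.59 points, and 84.5% of the CpGs lay within 10 points of each other. If the pooled calls of each CpG were divided at random between the libraries, these values would be 2.5 points and 85.1% (hypergeometric expectation at the observed call numbers). Differences of at least 20 points were found at 26191 CpGs (4.39%), against 23774 expected, and differences of at least 40 points at 1565, against 1248 expected. Across CpGs, which share both libraries and are not independent, Pearson's r was 0.966.

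**Figure D2:**
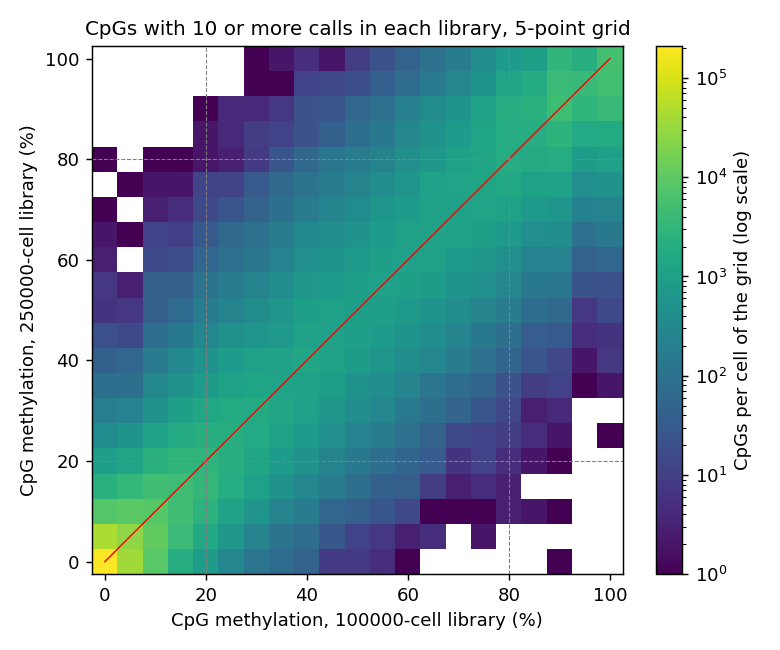
CpG methylation (%) in the 100000-cell library (horizontal axis) against the 250000-cell library (vertical axis) for 596341 CpGs with at least 10 calls in each, counted on a 5-point grid and coloured on a log scale. The red line marks equal levels and the dashed lines 20 and 80%; most CpGs sit in the low corner, and the corners of opposite calls hold 8 CpGs.

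**Figure D3:**
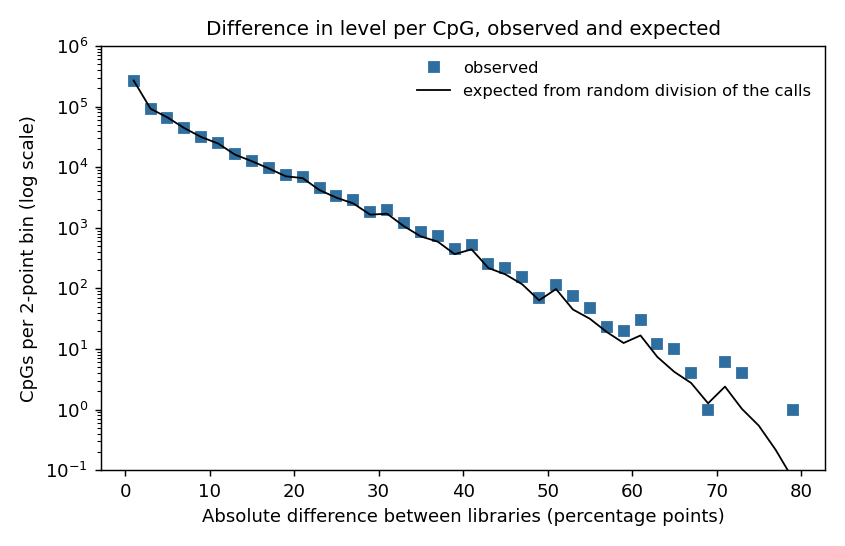
Number of CpGs (log scale) by absolute difference between the libraries (percentage points, 2-point bins), with squares for the observed counts and a line for the counts expected from random division of each CpG's calls. The squares follow the line up to about 20 points and lie above it for most larger differences.

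The spread followed call number and level. Where the smaller library had 10 to 14 calls, 75.6% of CpGs lay within 10 points (76.4% expected), and where it had at least 100 calls, 99.2% did (99.4% expected). The median absolute difference was 0 points for CpGs with a pooled level under 5%, 10 points from 40 to 60% and 4.44 points from 95 to 100%. Intermediate CpGs were compared with sampling by a scaled Pearson chi-square, which averages 1 when calls are divided at random. Its mean over 113376 CpGs with a pooled level from 20 to 80% was 1.077 ± 0.00445 (SE over CpGs). Among 72100 CpGs with at least 10 calls in all 3 libraries, it was again taken where the pair's pooled level was from 20 to 80%. It was 1.09 ± 0.0159 (SE) for this pair, over 9203 CpGs. For the 20000-cell library it was 1.23 ± 0.0182 with the 100000-cell one (9353 CpGs) and 1.22 ± 0.0184 with the 250000-cell one (9173 CpGs).

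No CpG differed between the libraries by Fisher's exact test with Benjamini-Hochberg adjustment (0 of 596341 at an adjusted p under 0.05; 0% called). The smallest unadjusted p was 6.11e-06 by Fisher's exact test, where a lone CpG needed 8.38e-08. Without adjustment, 9320 CpGs (1.56%) had a Fisher's exact p under 0.05, which is 1.20 times the 7759.9 expected from the discrete test. Of the 9320, 5095 were higher with 100000 cells and 4225 with 250000 cells. Depth set what could be seen: 91.8% of the CpGs had calls enough to pass alone at 0 against 100%, but at the median call numbers a lone CpG near 50% had to differ by 74.2 points. Smaller differences near 50% were not detectable at a lone CpG with the median calls. The limit was not worked out for deeper CpGs or for other levels.

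The following CpGs, among those with the lowest p in each direction, were picked after their values were seen, and none passes adjustment (adjusted p = 1 for each by Fisher's exact test). One lay 906 bp from the start of Cacnb4, a calcium channel subunit (chr2:52676765), with 1 of 45 calls (2.22%) and 16 of 43 calls (37.2%) methylated. In Fam78a (chr2:32082803) a CpG read 17 of 42 (40.5%) and 50 of 63 (79.4%). In the opposite direction, a CpG in Traf5, an adaptor of tumour necrosis factor receptors (chr1:192092014), read 16 of 21 (76.2%) and 5 of 31 (16.1%). A CpG 3701 bp outside Rasgrf1, an imprinted gene (chr9:89905806), read 34 of 36 (94.4%) and 10 of 22 (45.5%), and one 34335 bp from Nkx1-1 (chr5:33468425) read 53 of 58 (91.4%) and 52 of 90 (57.8%). The shallow 20000-cell library read 0 of 11 calls methylated at the Cacnb4 CpG, near the 100000-cell value, and 10 of 12 at the Fam78a CpG, near the 250000-cell value. It held 5 or 6 calls at the others, with 2 of 5 methylated at Traf5, 2 of 6 at Rasgrf1 and 4 of 5 at Nkx1-1.

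Intermediate CpGs recurred between the libraries. Of the 116361 CpGs intermediate in the 100000-cell library, 75.8% were intermediate in the other, and of the 114736 in the 250000-cell library, 76.9%. That made 88243 CpGs intermediate in both, 14.8% of those compared, against 89140 expected from random division. Another 54611 were intermediate in 1 library only. Opposite classes were almost absent: 2 CpGs were under 20% in the 100000-cell and over 80% in the 250000-cell library (1.84 expected), 6 the other way round (1.76 expected), and none of the 8 had at least 20 calls in each. With at least 50 calls in each library, 84.9 and 86.2% of the intermediate CpGs were shared.

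The shared intermediate CpGs had their own surroundings. They had a median of 14 CpGs within a 501 bp window, against 39 for the CpGs low in both and 7 for those high in both. Of the intermediate ones, 23.5% lay within 1000 bp of a gene start, against 55.2% of the low and 8.64% of the high ones. H3K4me1 peaks, which mark enhancers and promoter flanks, covered 17.4% of the intermediate, 36.3% of the low and 1.91% of the high CpGs. Libraries not used to choose them were read only as levels pooled over all these CpGs. The 20000-cell H3K27me3 library read 46.4% over 399065 calls, H3K4me1 run 2 44.3% over 108125 and H3K9me3 run 2 67.5% over 22590. A pooled level cannot show whether single CpGs were intermediate, since low and high CpGs together can give it. CpGs intermediate in 1 library only pooled to 41.6, 31.7 and 67.9% in the same 3 libraries. Differences between the libraries were most alike at close neighbours: across pairs of adjacent intermediate CpGs, which often lie on one fragment, the correlation of the differences was 0.175 at 1 to 25 bp (33834 pairs), 0.0530 at 26 to 100 bp (46544 pairs) and 0.0102 at 101 to 500 bp (52880 pairs).

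The 5 shared intermediate CpGs with most calls lay together on chromosome 4, from 118548269 to 118548686, beside Gm40237, 4543 to 4960 bp from the start of Tmem125, and outside any H3K27me3 peak. They had 201 to 328 calls in the 100000-cell and 271 to 420 in the 250000-cell library. One read 33.2% (109 of 328) and 34.3% (144 of 420), the next 76.4% (210 of 275) and 78.4% (268 of 342), and none of the 5 differed by more than 4.48 points. The 20000-cell library also had a stack of calls there, 79 to 101 per CpG.

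Among H3K27me3 peaks, 4293 of the unified list had at least 20 comparable CpGs, and their median share of CpGs intermediate in both libraries was 12.3%. In 219 peaks no CpG was, and in 56 peaks over 50% were. By count, the peaks with most intermediate CpGs were the 4 Hox clusters, whose genes set positional identity along the body axis. These are wide domains with many comparable CpGs. Their shares were 18.9% at Hoxc, 16.8% at Hoxa, 14.4% at Hoxd and 16.1% at Hoxb, beside 14.8% of all CpGs compared. The Hoxc domain (chr15:102902161-103149922) had 579 intermediate CpGs among 3071, the Hoxa domain (chr6:52148916-52278778) 483 among 2872, the Hoxd domain (chr2:74645104-74772410) 409 among 2833 and the Hoxb domain (chr11:96250835-96386001) 379 among 2359. Levels over these domains were 15.8 and 15.7% at Hoxc, 13.3 and 13.5% at Hoxa, 13.0 and 13.0% at Hoxd, and 13.5 and 13.7% at Hoxb in the 100000-cell and 250000-cell libraries. The difference at the same CpGs (Mantel-Haenszel, 250000-cell minus 100000-cell) was 0.0191 ± 0.0915 points (SE) at Hoxc and 0.196 ± 0.114 at Hoxb. The domain of Lmx1b, a limb and midbrain homeobox gene, had 298 among 1372 (21.7%), and that of Nr2f2, an orphan nuclear receptor, 270 among 1042 (25.9%).

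By share, the Sycp1 peak (chr3:102934786-102940635) led the named ones, with 36 of 55 CpGs intermediate in both (65.5%) and levels of 48.8% (617 of 1265 calls) and 49.8% (949 of 1906). Krt7, a keratin of simple epithelia, followed with 30 of 46 and levels of 50.5 and 50.6%. The peaks of Dbx2, a neural homeobox gene, with 33 of 54, Trpm1, an ion channel of retina and melanocytes, with 29 of 48, and Ch25h, cholesterol 25-hydroxylase, with 51 of 86, had levels of 44.7 and 44.8%, 49.1 and 46.0%, and 45.2 and 45.2%. None of these 5 peaks passed the test between the libraries (adjusted p from 0.662 to 1, exact test stratified by CpG). They were chosen after their values were seen.

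Peak methylation was tested at CpGs called in both libraries, by an exact test stratified by CpG, in 14697 of 17634 unified peaks with at least 20 such calls in each. The median absolute difference was 1.78 points, beside a median SE of 2.46 points, and 91.0% of the peaks lay within 10 points. Only 1 peak passed an adjusted p of 0.05 (0.0068% called). Unadjusted, 1110 peaks (7.55%) had an exact p under 0.05, 1.92 times the 578.6 expected if CpGs were independent, with 597 higher in the 250000-cell and 513 in the 100000-cell library. The 3448 peaks with a pooled level under 20% had a median absolute difference of 0.571 points, the 8198 from 20 to 80% one of 2.08 points and the 3051 above 80% one of 3.99 points. The last group was narrower, with a median width of 2362 bp against 5212 bp in the first.

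The peak that passed lies 11690 bp from Klrg1, a receptor of natural killer and T cells (chr6:122257082-122258906). It read 87 of 165 calls (52.7%) in the 100000-cell library and 150 of 175 (85.7%) in the 250000-cell library, a difference of 28.9 ± 3.59 points at the same CpGs (adjusted p = 4.04e-05, exact test stratified by CpG). The 20000-cell library read 37 of 43 calls methylated (86.0%), near the 250000-cell value. This peak is an unusual stretch of sequence, with 23 gaps of exactly 9 bp among its 54 CpGs. In the array of 38 CpGs from 122257192 to 122257606, where no CpG had more than 5 calls in either library, the levels were 43.0% (40 of 93) and 84.3% (70 of 83). At the other 16 CpGs they were 65.3% (47 of 72) and 85.1% (86 of 101). The 100000-cell level was not even along the array. From -721 to -562 bp relative to the peak centre that library had no methylated call, at 1 to 4 calls per CpG. The 250000-cell library had 1 or 2 calls per CpG there, with a methylated call at all but the CpG at -646 bp. From -553 to -388 bp every CpG had methylated calls in both libraries. How few fragments carry these calls cannot be read from the deposited counts, and their part in the difference was not tested.

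Summing all calls of a peak, instead of comparing CpG by CpG, changed the picture. A summed level weights each CpG by its calls, which can differ between the libraries even where both read the same CpGs. Levels printed beside a same-CpG difference are such sums over CpGs called in both libraries. Fisher's exact test on summed calls passed 603 of 15049 peaks (4.01%), 370 higher in the 250000-cell and 233 in the 100000-cell library. In those 603 peaks the median absolute difference was 5.44 points by summed calls but 0.949 points CpG by CpG (Mantel-Haenszel). In a peak 26326 bp from Golga5, CpGs called in both libraries summed to 64.4% (38 of 59 calls) and 40.5% (30 of 74). Its Mantel-Haenszel difference was -4.96 points. The Barhl2 peak (chr5:106443569-106474114), around a neural homeobox gene, shows the same-CpG scale in a deep region: 17.4% (4097 of 23545) against 16.1% (6405 of 39870), with a same-CpG difference of -0.98 ± 0.235 points (adjusted p = 0.145, exact test stratified by CpG).

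Promoters, 1000 bp to each side of a gene start, were tested in 8470 of 20665 genes, and 2 passed (0.0236% called). Pcdha9, a clustered protocadherin of neuronal surfaces (chr18:36996880-36998880), read 35 of 207 calls (16.9%) and 90 of 269 calls (33.5%), and 21 of its 37 CpGs were higher in the 250000-cell library against 3 higher in the 100000-cell one. Its difference was 19.8 points (adjusted p = 0.00180, exact test stratified by CpG), and the 20000-cell library read 36.6% over 41 calls. Napsa, an aspartic protease (chr7:44585846-44587846), read 77 of 397 (19.4%) and 226 of 656 (34.5%), with a difference of 10.9 points (adjusted p = 0.0308, exact test stratified by CpG), and 24.1% over 112 calls from 20000 cells. For both genes the CpG-richer end of the gene stood in for the start. With 2000 bp to each side, neither promoter passed, and the differences were 1.68 and 5.78 points.

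Promoters of the listed developmental genes had close levels in both libraries. All 39 Hox promoters could be tested, with medians of 4.77 and 5.45%, and 0 passed. Hoxc10 read 454 of 6408 calls (7.08%) and 840 of 11539 (7.28%), and Hoxd13 30 of 4768 (0.629%) and 58 of 6854 (0.846%). Unadjusted, 4 of the 39 had an exact p under 0.05, where 5.64% of all promoters did. Among 62 lineage transcription factors, medians were 2.00 and 1.84% and 0 passed. Neurog1, the deepest of them, read 94 of 8661 calls (1.09%) and 178 of 14697 (1.21%), and Neurog2, its relative, 55 of 6928 (0.794%) and 64 of 11520 (0.556%). Gata5, a regulator of endoderm and heart, was higher in both, at 11.9 and 12.3%. In this list 7 promoters were intermediate in both libraries, among them Tbx5, a heart and forelimb factor, at 55.3 and 56.5%, and Pax8, a thyroid and kidney factor, at 41.2 and 41.9%. The largest difference at the same CpGs was at Gata4, an endoderm and heart factor with few calls, at 62 of 81 (76.5%) and 90 of 128 (70.3%), or -9.75 points. For Tbx5, Gata4, Hoxc10 and some other Hox genes the CpG-richer end of the gene stood in for the start, so these windows may not be their promoters.

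Signalling genes under Polycomb were measured at 26 of 30 promoters, and 0 passed. Ihh, a hedgehog ligand, read 8.88 and 7.82%, Wnt3a, a Wnt ligand, 2.16 and 1.88%, and Wnt1 22.5 and 23.5%. Of 24 genes for Polycomb subunits, 12 could be tested and 0 passed, with medians of 1.23 and 1.34%. Cbx8, which binds the mark, read 1.39 and 1.44%. Among DNA methylation enzymes 3 of 9 promoters had enough calls: Dnmt3a read 1.36 and 1.35%, Dnmt3b 140 of 1002 calls and 241 of 1664 (14.5%), and Tet3 10.6 and 7.20%, the latter with a same-CpG difference of 0.575 points. None of the 3 passed. Imprinted genes were tested at 19 of 32 promoters, with medians of 2.06 and 2.52%, and 0 passed. Grb10, a growth inhibitor, read 1.08 and 0.945%, and Cdkn1c, a cell cycle inhibitor, 1.41 and 1.75%. For Cdkn1c the CpG-richer end of the gene stood in for the start. The Grb10 value is that of its CpG-denser start. At another Grb10 start (chr11:12027922-12028221) the stretch read 27.5% (100 of 363 calls) and 35.1% (232 of 661), with 5 of 9 CpGs intermediate in both libraries. In the pluripotency list only 4 of 20 promoters had enough calls, and in the housekeeping list 2 of 15, and 0 passed in either. Dppa3, a maternal factor for which the CpG-richer gene end stood in for the start, read 69.5 and 66.1%, and Esrrb, a nuclear receptor, 8.46 and 7.88%. Another Esrrb start (chr12:86360867-86361166) read 68.0% (34 of 50 calls) and 60.7% (37 of 61) in its stretch.

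Germline genes, which are silenced by promoter methylation outside the germ line, were the list with intermediate levels. Of 21 genes 17 were tested, 15 were from 20 to 80% in both libraries, and the medians were 43.9 and 41.7%. None passed the test. An unadjusted exact p under 0.05 was found for 0 of the 17, beside 5 of 62 lineage factors, 3 of 26 signalling genes, 2 of 19 imprinted genes and 5.64% of all promoters. Sycp1 read 562 of 1190 calls (47.2%) and 846 of 1794 (47.2%). Tdrd1, a piRNA pathway protein, read 335 of 990 (33.8%) and 549 of 1537 (35.7%). Taf7l2 read 56.3 and 57.2%, and Ddx4, a germ cell helicase, 22.5 and 21.2%. The largest difference at the same CpGs was at Brdt, a testis bromodomain protein, at 50 of 114 calls (43.9%) and 36 of 108 (33.3%), or -11.9 points (adjusted p = 0.907, exact test stratified by CpG).

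**Figure D4:**
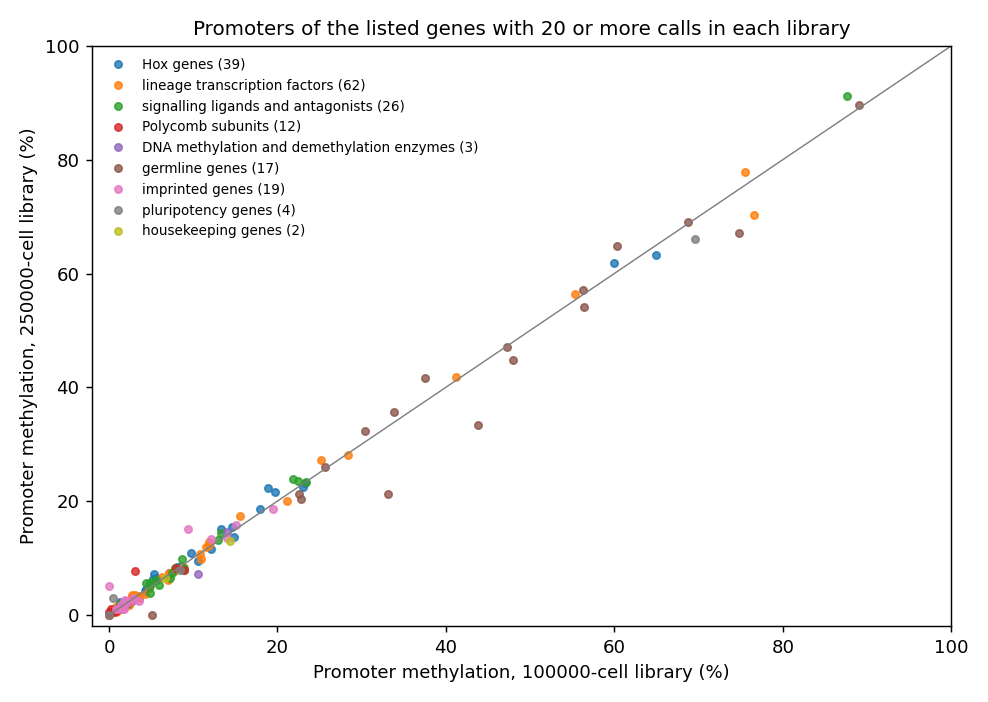
Promoter methylation (%) in the 100000-cell library (horizontal axis) against the 250000-cell library (vertical axis), 1 point per promoter with at least 20 calls in each, coloured by gene list with the number of promoters in brackets; the line marks equal levels. Hox and lineage promoters crowd the low end, germline promoters spread along the middle of the line, and Stk31 (33.1 and 21.2%) and Brdt lie farthest below it.

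The peak lists, which give positions without scores, held 12315 peaks for 100000 cells and 13511 for 250000 cells. At least 1 bp of overlap with the other list was found for 11415 peaks of the first (92.7%, 95% Wilson interval 92.2 to 93.1) and 10569 of the second (78.2%, 77.5 to 78.9). In bases the shares were 95.3% of 67.4 Mb and 80.5% of 79.8 Mb. Width went with overlap: under 1500 bp, 75.9 and 38.2% of the peaks were overlapped, and from 6000 bp up 99.78 and 99.93%. In the 250000-cell list 814 peaks spanned at least 2 peaks of the other list, against 87 the other way round. Over 12651 unified peaks with enough calls, the log2 ratio of calls per 1000000 calls had a median of -0.08 (250000-cell over 100000-cell), and 98.2% lay within 1 of 0.

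Peaks in 1 list only numbered 900 for 100000 cells and 2942 for 250000 cells, both with a median width of 1001 bp, the smallest width listed. In the first, the library without the peak had a median of 0.558 times the call density of the library with it, and in the second 0.821 times. Since a peak enters this set by being called in one library and missed in the other, a ratio below 1 is partly fixed by the choice and was not tested. Call density in the missing library was still 7.65 and 8.29 times that outside all peaks. Of the 900 peaks, 34.1% reached at least the 5th percentile of the density of shared peaks in the missing library, and of the 2942, 38.1%. Nearly all shared peaks reach that mark by its definition. The median of the shared peaks was reached by 12 of the 900 (1.33%) and 9 of the 2942 (0.306%). In 831 of the 2942 (28.2%) the 100000-cell library, without the peak, had the higher density, against 44 of the 900 (4.89%). The control without bisulfite listed a peak at 73.7 and 79.0% of them, against 98.9% of the shared peaks in each list. One-list peaks were more methylated than shared ones: 44.0 and 41.1% for the 900 and 54.7 and 55.1% for the 2942, against 23.0 and 22.8% for the shared peaks of the 100000-cell list. They also held fewer CpGs, with a median of 12.0 per kb against 18.97.

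**Figure D5:**
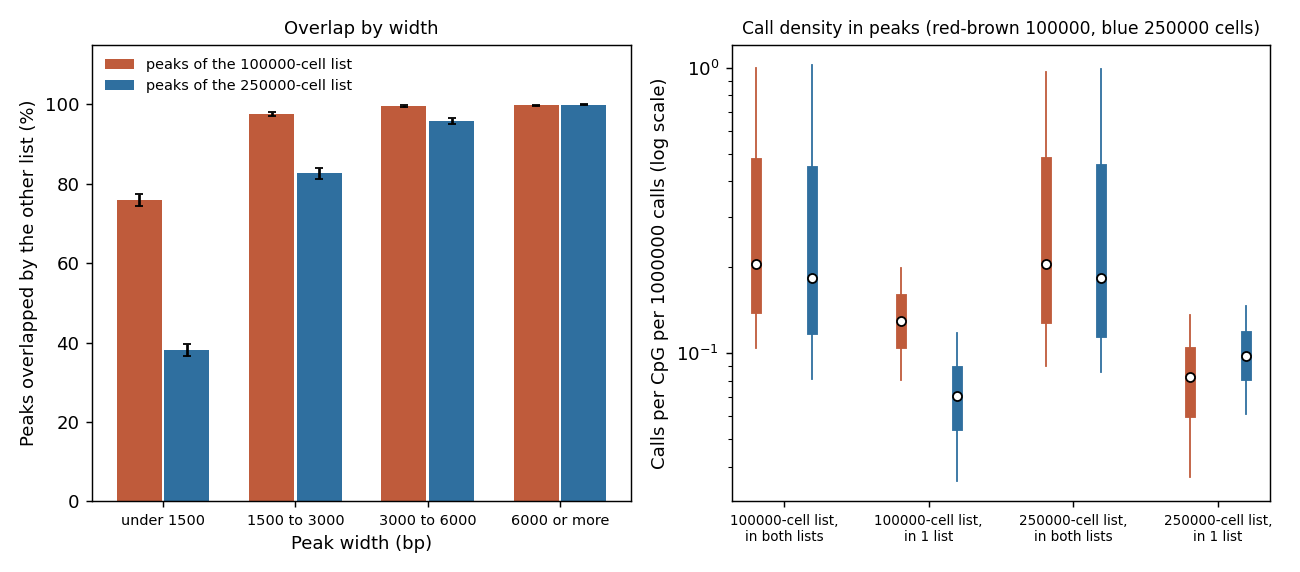
Left, share (%) of peaks overlapped by the other list by peak width (bp), with 95% Wilson intervals. Right, calls per CpG per 1000000 calls (log scale) in peaks of each list that are in both lists or in 1 list, with white points for medians, thick bars for the middle 50% and thin bars for the 5th to 95th percentile; red-brown is the 100000-cell and blue the 250000-cell library, and peaks of 1 list have low density in both libraries.

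The 3 widest peaks of the 100000-cell list alone had a call density far above the median of 0.129 for such peaks. The widest was a 16586 bp domain over Cyp24a1, the vitamin D 24-hydroxylase, and Pfdn4 (chr2:170484180-170500765). It held 6868 calls in the 100000-cell and 10387 in the 250000-cell library, or 0.828 and 0.824 calls per CpG per 1000000 calls, and the levels were 22.5 and 21.3%. The second was the 12646 bp domain of Hrh3 (chr2:180095197-180107842), whose promoter is printed above, with densities of 0.691 and 0.753 and levels of 24.3 and 27.5%. The third was an 11293 bp domain over Pak1, a kinase of the cytoskeleton (chr7:97783259-97794551), with densities of 0.274 and 0.346 and levels of 10.3 and 9.40%. All 3 were present in the 20000-cell list, while the 250000-cell list and the control list used here held no interval overlapping them. Whether those 2 lists are complete at these places could not be checked, so the count of one-list peaks includes 3 domains whose place in it is in doubt. A 9619 bp peak 6232 bp from Gm39471 (chr11:114463979-114473597) had densities of 0.174 and 0.173, and a 7984 bp peak in Wnt7b (chr15:85550923-85558906) 0.142 and 0.117. At Hrh3, 47 promoter CpGs had at least 10 calls in each library, and 3 of 1186 calls (0.253%) and 10 of 1839 calls (0.544%) in the printed stretch were methylated.

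The widest peaks of the 250000-cell list alone were thin and methylated. The widest, 10704 bp and 30746 bp from Gm39049 (chr7:95734000-95744703), held 104 and 213 calls at densities of 0.0758 and 0.102, and read 90.4 and 89.7%. An 8710 bp peak in Fbln2, an extracellular matrix gene (chr6:91253651-91262360), held 195 and 261 calls and read 87.7 and 82.4%, and the 6959 bp peak in Eml1, a microtubule-binding protein (chr12:108367921-108374879), held 226 and 298 and read 91.6 and 86.6%. In both of these the 100000-cell library had the higher density, 0.0891 against 0.0785 in Fbln2 and 0.0846 against 0.0734 in Eml1. Peaks at 1810020O05Rik and near Gm34445 read 92.6 and 84.3%, and 91.3 and 88.0%. The control without bisulfite listed all 5 of these peaks.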

How the data were processed

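The deposited table held counts of methylated and of all calls per CpG, per the file headers, with both strands on one line and no normalization (0 count columns were left out). Peak lists held positions only. The submitters' processing notes list cutadapt 1.12, Bismark 0.23.0, Bowtie2 2.3.0, HOMER 4.10.3 and bedtools 2.29.2 and build mm10, with no roles; duplicate handling and the peak caller's settings are not given in the sources used here. All 395568 CG dinucleotides of the RefSeq promoter windows fell on positions of the table. Members and gene lists were chosen with earlier results of these data known.

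Levels are methylated over all calls. CpGs needed 10 calls in each library (two-sided Fisher's exact test); peaks and promoters needed 20 calls in each at CpGs called in both (two-sided exact test stratified by CpG, Mantel-Haenszel difference). Benjamini-Hochberg adjustment ran over all features tested, at 0.05. Promoters lay 1000 bp around starts from RefSeq (16459) or, without an entry, around the gene end with more CpGs (4206). Where RefSeq gave several starts, the one with most CpGs within 1000 bp was used, which favours CpG-dense starts. Named genes were listed genes with most calls, up to 4 per list, promoters and peaks that passed, the 5 widest one-list peaks of each list and the 5 deepest intermediate CpGs; others were picked after their values were seen. Functions were tested on simulated data (Python 3.11.15, numpy 2.4.6, scipy 1.17.1). Results at a few items are not reported here.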

Additional observations from a re-analysis of the deposited data

How the results depend on the processing

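With 1 library per cell number, no sample could be left out. No paired analysis was possible because each cell number has 1 library. The count of CpGs that differ was 0 under every alternative tried: a minimum of 5 calls (11927 unadjusted exact p under 0.05), 20 calls (5813), mid-P values (15376) and without the deepest CpGs (9303). Agreement moved with the call minimum: the median absolute difference was 3.03 points at 5 and 2.25 at 20 calls, 76.4 and 90.0% of CpGs lay within 10 points, and Pearson's r was 0.951 at 5 calls. CpGs intermediate in both numbered 46124 with bounds of 30 and 70% and 45318 at 20 calls, fewer by construction. Peaks that differ numbered 603 by Fisher's exact test with all calls of a peak added up. Such sums let the libraries read different CpGs, or weight the same CpGs by different call numbers. With the deepest CpG of each peak, 0 peaks differed (131 unadjusted exact p under 0.05). Promoters that differ numbered 102 by Fisher's exact test on all calls and 0 with 2000 bp to each side (610 unadjusted exact p under 0.05); with 500 bp, Napsa and Pcdha9 passed again. Overlap of peaks was 91.0 and 71.8% with 50% of the peak covered, and 96.6 and 84.1% for peaks of at least 2000 bp. The chi-square and density ratios of one-list peaks kept their values within their spread.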
